A study of Mus musculus with 6 samples.

Results

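The interferon regulatory factors are transcription factors that share an N-terminal DNA-binding domain and bind repeats of the letters GAAA in the control regions of interferon and immune genes. The genes described here are *Irf1*, *Irf2*, *Irf3*, *Irf4*, *Irf5*, *Irf7*, *Irf8* and *Irf9*, taken by gene symbol as 8 of the 24223 genes with a deposited count, and all 8 passed the filter on low counts that left 13607 genes for testing. RNA-Seq was performed on 6 libraries from mouse CD4+ T cells, with 2 libraries each of naive CD4+ T cells (Naive), of Th1 helper cells and of Th17 helper cells. The study compared these cell types to relate chromatin to the expression of lineage genes.

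All cells came from C57BL/6 mice, and the paper states their age as a range of months that applies to every cell type. Naive cells were CD4+CD44- cells, separated with a kit for CD4+CD62L+ cells from lymph nodes and spleens that were pooled, and were used without culture or stimulation. Th1 cells were made from them by stimulation with bound anti-CD3 and soluble anti-CD28, or with CD3/CD28 beads, in the presence of anti-IL-4, IL-12 and IL-2. Th17 cells were stimulated in either of these ways with anti-IL-4, anti-IFN-γ, TGF-β, IL-6, IL-1β and IL-23. Both cell types were collected on the fifth day, and the stimulation used for each library is not stated. Activation, culture and polarization therefore cannot be told apart in the comparisons with Naive, and the blocking of IFN-γ is part of the Th17 condition. Fewer cells of a type and less RNA per cell cannot be told apart either. Each value is that of a whole preparation. In the paper's flow cytometry the Naive cells were not fully pure. Only part of the Th17 cells stained for IL-17A, and only part of the Th1 cells for IFN-γ.

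The members have distinct roles. Irf3 and Irf7 are held in the cytoplasm until the kinases Tbk1 and Ikbke, downstream of sensors of foreign nucleic acid, phosphorylate them, and they then induce type I interferon genes. Irf5 acts downstream of Toll-like receptors, mainly in myeloid cells. Irf9 is the DNA-binding subunit of the complex that answers type I interferon, and *Irf1* and *Irf8* are induced by IFN-γ. Irf1 is an activator needed for Th1 responses, and Irf2 binds the same sites and can antagonize it. Irf4 is induced by antigen receptor signals and is required for Th17 differentiation, and Irf4 and Irf8 bind DNA weakly alone and work with Ets or AP-1 partners such as Spi1 and Batf.

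The sequence before the start site of the 3 members that held a match to an interferon-related motif is given here, since the values of these genes are among those that the results turn on. RefSeq promoter windows (GRCm38.p6) from 250 bases before to 50 bases after a start site were found for 8 of 8 members, with 11 windows in all, and the lines give positions -250 to -51 of the plus strand. Capitals mark matches to the gamma-activated site TTCNNNGAA, an element of genes that answer IFN-γ, or to GAAANNGAA, the core of the interferon-stimulated response element that interferon regulatory factors bind.
Irf1, chr11:53769764-53769963: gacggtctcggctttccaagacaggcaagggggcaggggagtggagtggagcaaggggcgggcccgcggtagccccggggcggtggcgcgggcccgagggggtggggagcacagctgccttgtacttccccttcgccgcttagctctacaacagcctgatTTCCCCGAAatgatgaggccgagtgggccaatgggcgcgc
Irf2, chr8:46739495-46739694: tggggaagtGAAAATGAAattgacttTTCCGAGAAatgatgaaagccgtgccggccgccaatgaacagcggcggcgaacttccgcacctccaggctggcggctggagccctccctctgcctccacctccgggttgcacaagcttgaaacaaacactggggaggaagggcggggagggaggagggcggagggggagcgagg
Irf8, chr8:120736108-120736307: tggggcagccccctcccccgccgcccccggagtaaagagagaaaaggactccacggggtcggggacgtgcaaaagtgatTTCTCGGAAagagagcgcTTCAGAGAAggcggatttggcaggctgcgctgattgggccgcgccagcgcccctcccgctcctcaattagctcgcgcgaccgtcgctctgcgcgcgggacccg

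The *Irf1* window held 1 gamma-activated site at positions -90 to -82. The *Irf2* window held 1 GAAANNGAA match at -241 to -233 and 1 gamma-activated site at -224 to -216, and an NF-kB match (GGGNNTTCC) lay at -16 to -8, outside the printed stretch. The *Irf8* window held 2 gamma-activated sites, at -171 to -163 and -153 to -145. Each motif was searched on both strands, with TGANTCA for AP-1 as the last of 4, and no match overlapped another. Among 32851 promoter windows of the same length, 8.56% held GAAANNGAA, 8.3% the gamma-activated site, 7.81% the AP-1 motif and 5.82% the NF-kB motif, and 0.457% held 2 or more gamma-activated sites. The other 8 windows of the members, which include a second start of *Irf1* and of *Irf8*, held no match to these letters. A match is a description of the sequence and shows no binding.

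**Figure D1:**
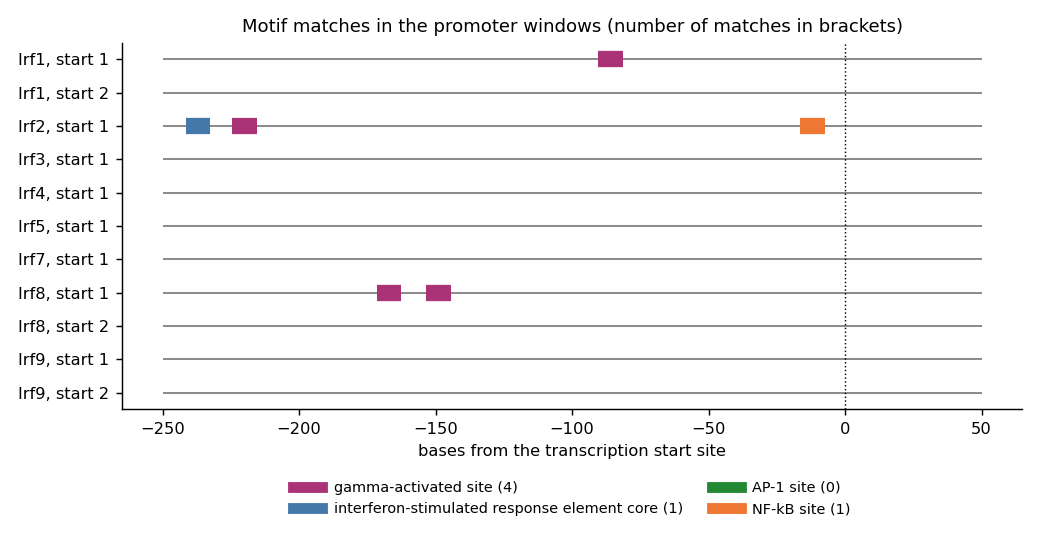
Motif matches in the 11 RefSeq promoter windows of the 8 members, plotted by distance in bases from the transcription start site, with 1 line per window and 1 coloured box per match. Matches lie only in the first windows of *Irf1*, *Irf2* and *Irf8*, and 4 of the 6 boxes are gamma-activated sites.

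The libraries held 17742158 to 69080017 counts, and replicate 1 of each cell type was 3.38 to 3.77 times as deep as replicate 2. The replicates of a cell type correlated in log2 CPM at r 0.970 (Naive), 0.978 (Th17) and 0.975 (Th1) across the genes tested, which are not independent. Every member had at least 124 counts in every library. CPM gives a gene's counts relative to the library total after TMM scaling, and CPM per kb divides them by the union of a gene's annotated exons. The 7 T cell marker genes summed to between 2736 and 4106 CPM in all 6 libraries, with *Lck* the highest in Naive and Th1 and *Cd3d* in Th17. DEGs had a fold change above 2 and an adjusted p-value under 0.01 in edgeR's quasi-likelihood test of all 13607 genes, and both comparisons with Naive share the same Naive libraries.

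*Irf8* was the member called as a DEG in both comparisons that involve Th1 cells. It lies on chromosome 8 (120736358 to 120756694, plus strand, GRCm38) with 7055 bases of annotated exon. Its level was 58.7 and 37.5 CPM in the Naive libraries, 30.6 and 28 CPM in Th17, and 172 and 128 CPM in Th1. Both Th1 libraries lay above all others, and both Th17 libraries lay below both Naive libraries. *Irf8* rose in Th1 compared with Th17 by a log2 fold change of 2.36 (SE 0.31, adjusted p = 0.00128), a fold of 5.12. It rose in Th1 compared with Naive by 1.64 on the log2 scale (SE 0.30, adjusted p = 0.00537), a fold of 3.12. The difference between Th17 and Naive, a log2 fold change of -0.72 (SE 0.30, adjusted p = 0.123), did not pass the test. The call against Naive was lost without Naive replicate 2 (log2 fold change 1.35, adjusted p = 0.0271), without Th1 replicate 1 (1.46, adjusted p = 0.0266), without Th17 replicate 1 (1.64, adjusted p = 0.0118), in a fit of only the 4 libraries compared (adjusted p = 0.012) and with library size alone as the scaling (adjusted p = 0.0183). The call against Th17 was lost without Th17 replicate 1 (2.42, adjusted p = 0.0151) or Th17 replicate 2 (2.30, adjusted p = 0.0125).

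Since *Irf8* and *Irf5* are also expressed by dendritic cells, macrophages and B cells, the markers of those cells were read in the same libraries. The 7 B cell markers found in the files (of 8 listed) summed to 12.6 to 16.1 CPM in Naive, 19.5 to 26.3 CPM in Th17 and 4.42 to 5.68 CPM in Th1, and *Blk*, the highest in Th17, had 6.59 and 5.09 CPM there. The 8 dendritic cell markers summed to 5.05 to 17.5 CPM in Naive, 23.1 to 42.7 CPM in Th17 and 8.72 to 12.2 CPM in Th1, and *Siglech* and *Cd209a*, markers of plasmacytoid and monocyte-derived dendritic cells, had no count in any Th17 or Th1 library. In the same list *Xcr1* was highest in Th1, with 0.792 and 0.446 CPM in Naive, 3.03 and 2.998 CPM in Th17, and 5.55 and 4.99 CPM in Th1, and *Batf3* had 0.249 and 0.149 CPM in Naive, 16.3 and 12.6 CPM in Th17, and 5.83 and 2.02 CPM in Th1. The B cell sum was thus lowest in Th1, and the dendritic cell sum in Th1 lay within the Naive range. Different genes made up the dendritic cell sums. *Flt3* had 6.65 and 2.48 CPM in Naive, 1.24 and 1.47 CPM in Th17, and 0.139 and 0.126 CPM in Th1. *Zbtb46* had 7.04 and 0.446 CPM in Naive, 0.918 and 1.70 CPM in Th17, and 0.418 and 1.45 CPM in Th1. *Itgax* had 1.44 and 23.8 CPM in Th17. The dendritic cell sums therefore do not compare the same genes between cell types. The 7 monocyte and macrophage markers found (of 8) summed to 162 to 187 CPM in Naive, 479 to 1227 CPM in Th17 and 139 to 217 CPM in Th1, led by *Lyz2* at 223 and 762 CPM in Th17. The 8 neutrophil markers summed to 190 to 312 CPM in Naive, 2981 to 3081 CPM in Th17 and 30.0 to 43.7 CPM in Th1, with *S100a8* the highest in Th17 (1149 and 1142 CPM) and *Mpo* the highest in Naive (251 and 159 CPM). The 6 markers of CD8 T and NK cells summed to 32.7 to 65.8 CPM in all libraries, with *Klrd1* or *Eomes* the highest. The sums of the monocyte and neutrophil lists were therefore highest in the Th17 libraries, and the part of these lists in the level of any member was not tested.

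*Irf7*, the inducible partner of *Irf3* in the interferon response, was a DEG between Th1 and Th17 but differed widely between the Th1 libraries. It lies on chromosome 7 (141262706 to 141266481, minus strand). Its level was 78.0 and 79.8 CPM in Naive, 21.8 and 17.6 CPM in Th17, and 154 and 50.2 CPM in Th1. The Th17 libraries lay below all others, while the Th1 libraries lay on either side of Naive. *Irf7* rose in Th1 compared with Th17 by 2.38 on the log2 scale (SE 0.46, adjusted p = 0.00832), a fold of 5.20. That call was lost without Th1 replicate 1 (log2 fold change 1.34, adjusted p = 0.0284), without Th17 replicate 1 (2.54, adjusted p = 0.0446), without Th17 replicate 2 (2.24, adjusted p = 0.058) and with library size alone (2.18, adjusted p = 0.0238). The log2 fold change of Th1 compared with Naive was 0.38 (SE 0.43, adjusted p = 0.615), and it was -0.61 without Th1 replicate 1. For Th17 compared with Naive it was -2.00 (SE 0.45, adjusted p = 0.0173), past the fold threshold but not the p threshold, and DESeq2 called this difference.

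*Irf9* and *Irf3* complete the set tied to type I interferon. *Irf9* (chromosome 14, 55603571 to 55610030, plus strand) had 114 and 116 CPM in Naive, 56.7 and 52.3 CPM in Th17, and 143 and 111 CPM in Th1. The Th17 libraries were again the lowest, and the Naive libraries lay between the Th1 libraries. The log2 fold change was -1.08 (SE 0.25, adjusted p = 0.0203) for Th17 compared with Naive and 1.22 (SE 0.25, adjusted p = 0.0118) for Th1 compared with Th17, neither of which passed the threshold of 0.01. For Th1 compared with Naive it was 0.15 (SE 0.25, adjusted p = 0.75), and its sign turned to -0.095 with library size alone and to -0.0048 without Th1 replicate 1. *Irf3* (chromosome 7, 44997648 to 45002848, plus strand) had the smallest fold changes of the 8 members, judged by the largest of each gene's 3, with 115 and 132 CPM in Naive, 115 and 119 CPM in Th17, and 87.3 and 76.8 CPM in Th1. Both Th1 libraries lay below the other 4, and the Naive and Th17 libraries overlapped. Its log2 fold changes were -0.59 (SE 0.24, adjusted p = 0.14) in Th1 compared with Naive, -0.51 (SE 0.24, adjusted p = 0.172) in Th1 compared with Th17 and -0.07 (SE 0.24, adjusted p = 0.857) in Th17 compared with Naive, the last of which was 0.018 without Naive replicate 2.

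*Irf1* and *Irf2*, the activator and the antagonist that share binding sites, ranked the 6 libraries in the same order. *Irf1* (chromosome 11, 53770014 to 53778374, plus strand) had 170 and 211 CPM in Naive, 166 and 154 CPM in Th17, and 297 and 349 CPM in Th1. *Irf2* (chromosome 8, 46739732 to 46847458, plus strand) had 65.2 and 83.3 CPM in Naive, 64.3 and 59.7 CPM in Th17, and 137 and 152 CPM in Th1. Both Th1 libraries lay above the other 4 for each gene, and the Th17 libraries lay just below Naive. For *Irf2* the log2 fold change was 1.22 (SE 0.25, adjusted p = 0.012) in Th1 compared with Th17 and 0.96 (SE 0.25, adjusted p = 0.028) in Th1 compared with Naive. For *Irf1* it was 1.02 (SE 0.27, adjusted p = 0.031) and 0.76 (SE 0.27, adjusted p = 0.0819). None of these passed the threshold of 0.01, although *Irf2* was called in Th1 compared with Th17 without Naive replicate 2, and DESeq2 called both genes there. The ratio of *Irf1* to *Irf2* in CPM per kb was 4.85 and 4.71 in the Naive libraries, 4.79 and 4.79 in those of Th17, and 4.03 and 4.26 in those of Th1. The ratio thus moved little while both levels were higher in Th1.

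*Irf4* had low levels in Naive and higher levels in both helper cell types. It lies on chromosome 13 (30749226 to 30766976, plus strand). Its level was 15.5 and 19.3 CPM in Naive, 66.3 and 56.2 CPM in Th17, and 96.8 and 35.6 CPM in Th1. All 4 libraries of cultured cells lay above both Naive libraries, and the Th1 libraries lay on either side of Th17. The log2 fold change was 1.82 (SE 0.43, adjusted p = 0.0199) for Th17 compared with Naive and 1.93 (SE 0.43, adjusted p = 0.0133) for Th1 compared with Naive. The size of both passed the fold threshold and their p-values did not. DESeq2 called both. With edgeR the Th17 difference was called without Th1 replicate 1 and without Th1 replicate 2. The Th1 difference was called without Th1 replicate 2 (log2 fold change 2.48) but not without Th1 replicate 1. As single libraries were left out, the log2 fold change of Th1 compared with Naive ran from 1.08 to 2.48. The ratio of *Irf4* in Th1 to that in Naive was 6.24 between the first replicates and 1.85 between the second. For Th1 compared with Th17 the log2 fold change was 0.12 (SE 0.41, adjusted p = 0.861), which turned to -0.076 with library size alone and to -0.78 without Th1 replicate 1. Within libraries, the ratio of *Irf4* to *Irf8* in CPM per kb was 0.380 and 0.741 in the Naive libraries, 3.12 and 2.89 in those of Th17, and 0.810 and 0.400 in those of Th1. The Th17 libraries were the ones in which *Irf4* exceeded *Irf8*, a ratio that does not depend on how libraries are scaled. It is given as a description, since the smallest two-sided p that exact permutation of 2 against 2 libraries allows is 0.333.

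*Irf5* (chromosome 6, 29526625 to 29541871, plus strand) was lower in Naive than in the cultured cells. It had 6.65 and 6.14 CPM in Naive, 11.0 and 13.2 CPM in Th17, and 12 and 20.2 CPM in Th1. Both Naive libraries lay below the other 4, and Th17 and Th1 overlapped. The log2 fold change was 0.92 (SE 0.37, adjusted p = 0.114) for Th17 compared with Naive, 1.32 (SE 0.37, adjusted p = 0.0364) for Th1 compared with Naive and 0.41 (SE 0.36, adjusted p = 0.452) for Th1 compared with Th17. DESeq2 called the second of these. Of its 2905 bases of annotated exon, 14.15% overlap exons of *Tnpo3* on the opposite strand, and the methods and the accompanying code differ on the strand setting of the counting, so that counts from this stretch are uncertain. The overlaps of other members with a neighbour covered at most 3.395% of their exons.

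**Figure D2:**
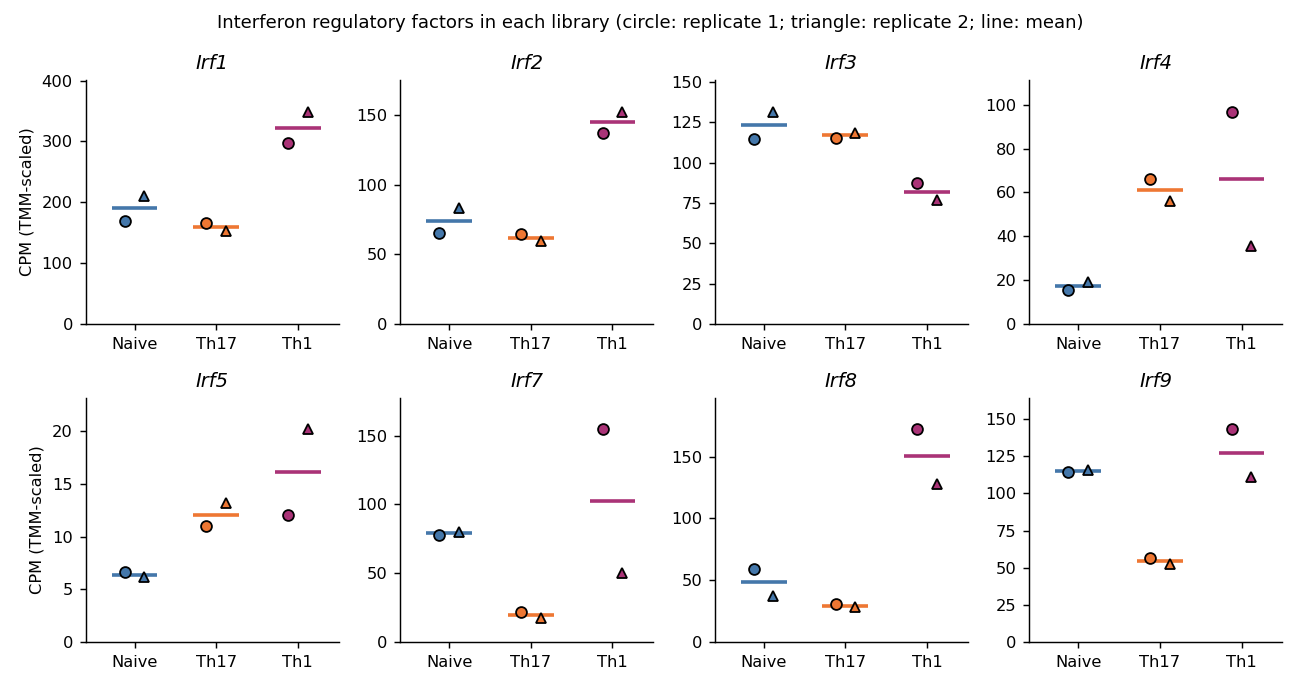
Level of each of the 8 genes in the 6 libraries, in TMM-scaled CPM on a linear axis that starts at 0 in each panel, with circles for replicate 1, triangles for replicate 2 and a line at the mean of each cell type. *Irf1*, *Irf2* and *Irf8* are highest in both Th1 libraries, while *Irf4* and *Irf7* differ between the Th1 libraries (96.8 and 35.6 CPM, 154 and 50.2 CPM).

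Counted over the members, few passed the test. In Th17 compared with Naive, 0 of 8 members were DEGs by edgeR, beside 5.43% of all genes tested (4.01% higher and 1.43% lower in Th17). An unadjusted p under 0.05 was found for 5 members, beside 33.3% of all genes, and DESeq2 called 3 (*Irf4*, *Irf7* and *Irf9*), beside 12.6% of all genes. In Th1 compared with Naive, 1 of 8 was called, higher in Th1, against 7.45% of all genes (4.64% higher and 2.81% lower), and 6 had an unadjusted p under 0.05, beside 29.9%. In Th1 compared with Th17, 2 of 8 were called, both higher in Th1, against 5.53% of all genes (2.70% higher and 2.83% lower), and 5 had an unadjusted p under 0.05, beside 33.8%. DESeq2 called 3 members in Th1 compared with Naive (*Irf4*, *Irf5* and *Irf8*), beside 14.1% of all genes, and 5 in Th1 compared with Th17 (*Irf1*, *Irf2*, *Irf7*, *Irf8* and *Irf9*), beside 13.2%. The libraries of the groups did not overlap for 7, 6 and 6 members in these comparisons, in the same order, beside 65.5%, 56.0% and 66.6% of all genes, so that a lack of overlap alone says little about a member. The median log2 fold change of the members was -0.26, 0.86 and 1.12 in these comparisons, where the medians of all genes were -0.02, -0.02 and -0.03. With library size alone as the scaling, the medians of all genes moved to -0.05, -0.26 and -0.24, and differences with Th1 are to be read relative to that shift.

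**Figure D3:**
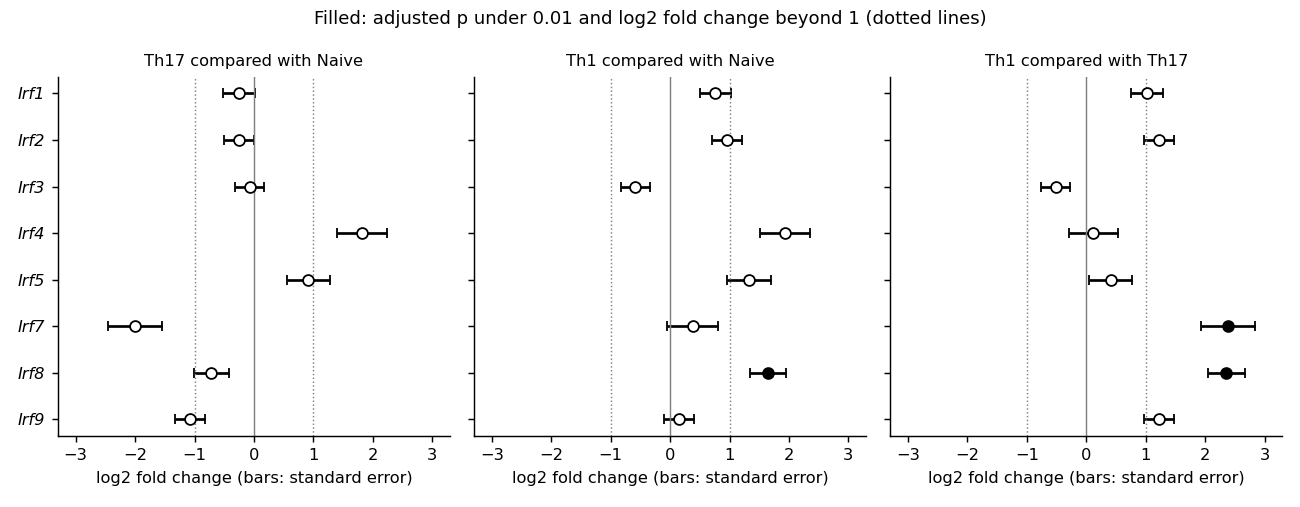
Log2 fold change of each member in the 3 comparisons, with bars for the standard error of edgeR's fit, dotted lines at a log2 fold change of 1 in either direction and filled points for DEGs. The filled points are *Irf8* in Th1 compared with Naive (1.64) and *Irf7* and *Irf8* in Th1 compared with Th17 (2.38 and 2.36).

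Levels were then compared between members on the scale of CPM per kb of exon. The union of the exons of *Irf7* (3776 bases) covers its whole annotated span, and that of *Irf9* (5386 bases) covers most of it. Values per kb of these genes are lower than a shorter transcript would give. The order of the genes and their shares of the summed level therefore depend on the length used. In Naive cells the order of mean levels (± SD, n = 2) was *Irf1* at 47.9 ± 7.27, *Irf3* at 35.8 ± 3.49, *Irf9* at 21.4 ± 0.19, *Irf7* at 20.9 ± 0.34, *Irf2* at 10.04 ± 1.73, *Irf8* at 6.82 ± 2.13, *Irf4* at 3.55 ± 0.55 and *Irf5* at 2.201 ± 0.12 CPM per kb. *Irf9* and *Irf7* lay closer together than the sum of their SDs. In Th17 the order was *Irf1* at 40.2 ± 2.12, *Irf3* at 34.0 ± 0.68, *Irf4* at 12.5 ± 1.46, *Irf9* at 10.1 ± 0.59, *Irf2* at 8.39 ± 0.44, *Irf7* at 5.22 ± 0.79, *Irf5* at 4.16 ± 0.53 and *Irf8* at 4.15 ± 0.26 CPM per kb. *Irf4* thus stood in the third place there, and the values of *Irf5* and *Irf8* overlapped. In Th1 the order was *Irf1* at 81.2 ± 9.29, *Irf7* at 27.1 ± 19.5, *Irf3* at 23.8 ± 2.15, *Irf9* at 23.6 ± 4.17, *Irf8* at 21.3 ± 4.39, *Irf2* at 19.6 ± 1.47, *Irf4* at 13.5 ± 8.83 and *Irf5* at 5.54 ± 1.99 CPM per kb. From *Irf7* to *Irf4* the library values of each gene overlapped those of the next, so that only the first and the last place were separate from their neighbours.

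The summed level of the 8 genes was 141 and 157 CPM per kb in the Naive libraries, 122 and 116 in those of Th17, and 234 and 197 in those of Th1. The sum was highest in the Th1 libraries and lowest in the Th17 libraries. *Irf1* made up 30.4% to 33.9% of it in Naive, 33.5% to 34.2% in Th17 and 31.9% to 44.6% in Th1. *Irf3* made up 23.7% to 24.4% in Naive, 27.5% to 29.8% in Th17 and 10.8% to 11.3% in Th1. Its share was thus the lowest in Th1, where its own level was also lowest. The ratio of *Irf7* to *Irf3* in CPM per kb was 0.620 and 0.552 in the Naive libraries, 0.172 and 0.135 in those of Th17, and 1.61 and 0.596 in those of Th1, so that the inducible factor exceeded the constitutive factor in 1 library, Th1 replicate 1.

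**Figure D4:**
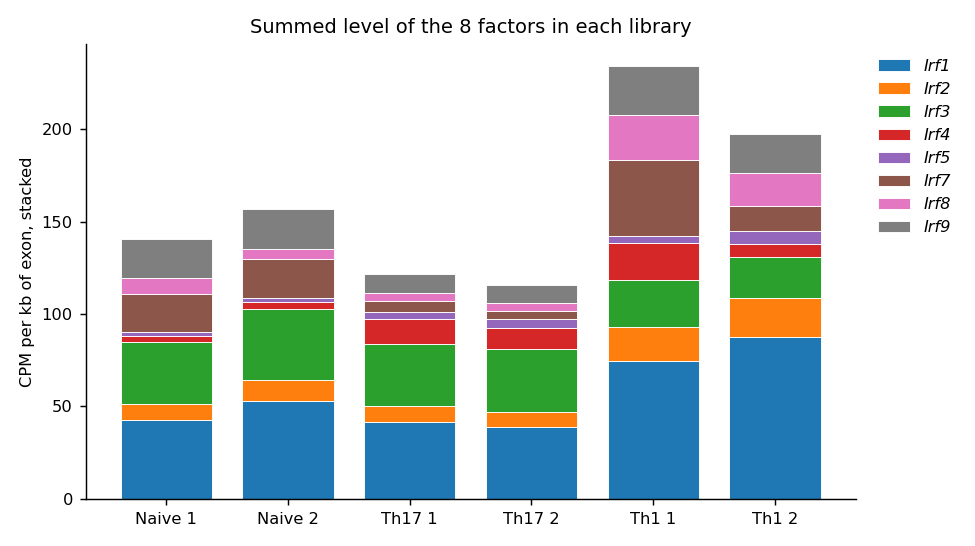
Stacked levels of the 8 genes in each library, in CPM per kb of exon on an axis from 0. The stacks reach 234 and 197 in Th1, 141 and 157 in Naive and 122 and 116 in Th17, and the *Irf1* segment is the largest in every library.

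The genes nearest to the called members were sought among all genes tested, by the Euclidean distance between log2 CPM profiles centred over the 6 libraries. Those nearest to *Irf8* were *Bspry* (distance 0.197, Pearson's r 0.997), *2010300C02Rik* (0.353, r 0.990) and *Ccrl2* (0.363, r 0.993), the last a chemerin-binding receptor. *Bspry* had 3.55 and 2.38 CPM in Naive, 1.82 and 1.92 CPM in Th17, and 10.4 and 8.60 CPM in Th1. Its groups thus stood in the same order as those of *Irf8*. Those nearest to *Irf7* were *Dhx58* (distance 0.825, r 0.952), an RNA helicase of the RIG-I family that is itself induced by interferon, *2510009E07Rik* (0.846, r 0.949) and *Fam81a* (0.909, r 0.959). *Dhx58* had 25.5 and 22.3 CPM in Naive, 9.49 and 9.50 CPM in Th17, and 76.5 and 17.7 CPM in Th1. Like *Irf7*, it was high in Th1 replicate 1 and below Naive in Th1 replicate 2. These genes were chosen for their likeness over the same 6 libraries, which carry the 3 cell types, and no test applies.

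The genes upstream of Irf1, Irf8 and Irf9 include IFN-γ and its signalling genes. In a list of 11 interferon receptors, Jak kinases and Stat factors, 2 rose, 1 fell and 8 did not pass in Th1 compared with Th17, and the median log2 fold change was 0.88. Beside the counts of this and the later lists, edgeR called 5.53% of all genes in Th1 compared with Th17. It called 5.43% in Th17 compared with Naive and 7.45% in Th1 compared with Naive. DESeq2 called 13.2%, 12.6% and 14.1% of all genes in the same order. *Ifngr2*, a chain of the IFN-γ receptor, had 35.3 and 49.7 CPM in Naive, 35.8 and 43.0 CPM in Th17, and 2.60 and 7.21 CPM in Th1. It fell in Th1 compared with Th17 by 3.05 on the log2 scale, a call lost without Th17 replicate 1 or Th17 replicate 2, while *Socs1*, the feedback inhibitor of Jak kinases, rose by 1.84 and *Ifng* rose by 1.56. The libraries of Th1 and Th17 did not overlap for these genes. *Ifng* had 4.55 and 4.55 CPM in Naive, 64.6 and 48.7 CPM in Th17, and 177 and 157 CPM in Th1. Both of these calls were lost with library size alone and without Th17 replicate 1, Th17 replicate 2 or Th1 replicate 2, that of *Ifng* also without Th1 replicate 1, and their log2 fold changes over all alternatives ran from 1.34 to 1.77 for *Ifng* and from 1.54 to 2.10 for *Socs1*. The counts over the list ran from 0 to 3 higher and from 0 to 1 lower as single libraries were left out. The kinase gene *Jak1*, among the genes of the list with the highest mean CPM, had 431 to 967 CPM over the 6 libraries. Compared with Naive, 3 genes of the list rose in Th1 (*Ifng*, *Ifngr1* and *Socs1*) and 1 fell (*Ifngr2*), and 1 rose in Th17 (*Ifng*), each kept in all 6 fits that left out a library.

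The list upstream of Irf3, Irf5 and Irf7 held 16 sensors, adaptors and kinases of the nucleic acid response, of which 15 could be tested. In Th1 compared with Th17 and in Th17 compared with Naive, 0 were DEGs by edgeR, with 6 and 4 of 15 at an unadjusted p under 0.05, near the 33.8% and 33.3% of all genes, and 1 (*Myd88*, the Toll-like receptor adaptor) rose in Th1 compared with Naive, by 1.28 on the log2 scale, a call lost on leaving out any library. DESeq2 called 0, 1 and 1 in the same order. The medians were 0.66, -0.38 and 0.26. The kinase *Ikbke*, with the highest mean of the list over the 6 libraries, had 212 and 366 CPM in Naive, 245 and 199.3 CPM in Th17, and 136 and 169 CPM in Th1, and *Tmem173* (STING), the highest of the list in Th1, had 200 and 234 CPM there and 103 to 139 CPM in the other libraries.

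Of 11 genes of antigen receptor and NF-kB signalling, which lead to *Irf4*, 1 rose in Th1 compared with Th17. This was *Nfatc1*, with 68.4 and 45.5 CPM in Th17 against 178 and 211 CPM in Th1 (log2 fold change 1.77, lost on leaving out any Th17 or Th1 library). It was also the 1 gene of the list called in Th17 compared with Naive, where it fell by 1.67 on the log2 scale, a call kept in 1 of the 6 fits that left out a library. In Th1 compared with Naive 0 were called by edgeR and 3 by DESeq2, which called 14.1% of all genes. An unadjusted p under 0.05 was found for 3, near the 29.9% of all genes. The medians in Th1 compared with Th17, Th17 compared with Naive and Th1 compared with Naive were 0.94, -0.45 and 0.31. *Prkcq*, a kinase of the antigen receptor pathway and among the genes with the highest levels, had a log2 fold change of 0.53 (adjusted p = 0.255) in Th1 compared with Th17.

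Of 8 AP-1 and Ets partners, 1 rose and 1 fell in Th1 compared with Th17, and both calls were kept in all 6 fits that left out a library. *Jun* rose by 4.67 on the log2 scale, from 53.9 and 35.1 CPM in Th17 to 792 and 1478 CPM in Th1. *Spi1*, the Ets factor PU.1 of myeloid and B cells, fell by 4.18, from 33.2 and 28.9 CPM in Th17 to 1.61 and 1.83 CPM in Th1, with 19.5 and 6.29 CPM in Naive. *Spi1* was thus highest in the libraries with the most myeloid marker RNA, and the part of other cells in its level was not tested. The genes with the highest levels were *Jund* and *Junb*, which did not pass the test (log2 fold change 1.81 and 1.28). *Batf*, the partner of Irf4 in Th17 cells, rose in Th17 compared with Naive by 2.00 on the log2 scale, from 41.6 and 38.8 to 150 and 171 CPM. *Batf3* rose by 6.06 in the same comparison, from 0.249 and 0.149 to 16.3 and 12.6 CPM. It stands also in the dendritic cell list. In Th17 compared with Naive 2 of the 8 partners rose (these), and in Th1 compared with Naive 3 rose (*Batf*, *Batf3* and *Jun*) and 1 fell (*Spi1*), calls kept in 0, 5, 4 and 2 of the 6 fits that left out a library, in that order. Of the 3 corepressors that bind Irf2, 0 were DEGs by edgeR in any comparison. In Th17 compared with Naive, Th1 compared with Naive and Th1 compared with Th17, 3, 0 and 2 had an unadjusted p under 0.05. The shares of all genes were 33.3%, 29.9% and 33.8%. DESeq2 called 1, 0 and 1 in the same order, beside 12.6%, 14.1% and 13.2% of all genes. Among the corepressors, *Irf2bp2* and *Irf2bpl* had log2 fold changes of 1.18 (adjusted p = 0.0396) and 0.39 (adjusted p = 0.474) in Th1 compared with Th17.

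Of the lists, the interferon-stimulated targets of these factors had the highest median in Th1 compared with Th17. Of 22 targets, 12 rose, 0 fell and 10 did not pass in Th1 compared with Th17, and the median log2 fold change was 2.31 beside -0.03 for all genes. As single libraries were left out, 3 to 15 targets were called, and DESeq2 called 16. *Ifit3* rose by 5.97 and *Oasl2* by 5.65 on the log2 scale, antiviral genes with 0.566 to 0.887 CPM in Th17. In Th1, *Ifit3* had 90.9 and 15.2 CPM and *Oasl2* 61.1 and 11.5 CPM. Both calls were lost without Th17 replicate 1, and without Th1 replicate 1 the log2 fold changes were 4.16 for *Ifit3* and 3.997 for *Oasl2*. The targets with the highest levels were *B2m*, the light chain of class I molecules, and the GTPase *Gbp2*. *Gbp2* rose by 4.51, from 148 and 105 CPM in Th17 to 2423 and 3315 CPM in Th1. *B2m* rose by 1.58, from 933 and 1040 CPM to 2867 and 3047 CPM, a call lost without any of the Th17 or Th1 replicates. Compared with Naive, 4 targets rose in Th1 (*Gbp2*, *Gbp3*, *Gbp5* and *Igtp*), all of which encode GTPases induced by IFN-γ, and each call was kept in all 6 fits that left out a library. In Th17 compared with Naive, 3 fell (*Ifit3*, *Oasl2* and *Usp18*), and the count ran from 0 to 8 as single libraries were left out.

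Among 9 helper cell genes known to depend on Irf4, 2 rose and 5 fell in Th1 compared with Th17. *Il17f* fell by 11.41 on the log2 scale, from 769 and 1090 CPM in Th17 to 0.480 CPM and no count in Th1. *Il17a*, the companion cytokine gene, fell by 10.57, and the DEGs that fell included *Il4* and *Il21* (log2 fold changes of -2.71 and -1.64), each called in 2 of the 6 fits that left out a library. As single libraries were left out, 1 to 3 genes of the list were called higher and 3 to 5 lower. *Gata3* and *Il10* rose by 3.71 and 3.06, the latter called in 3 of the 6 fits that left out a library. *Gata3*, the Th2 regulator, had 18.4 and 8.54 CPM in Th17 and 116 and 241 CPM in Th1, so the members of this list moved in both directions while *Irf4* itself had a log2 fold change of 0.12. In Th17 compared with Naive 5 rose and 1 fell, with a median of 3.20, and in Th1 compared with Naive 3 rose, with a median of 0.78. With at least 10 counts required in every library, these medians were 0.39 and 1.35 over the genes of the list that remained. The median in Th17 compared with Naive ran from 2.35 to 3.67 as single libraries were left out. The calls of *Il10* and *Gata3* in Th17 and of *Prdm1* in Th1 were lost with library size alone and in some fits that left out a library.

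The Th1 libraries differed from each other in a set of members and targets. The CPM in replicate 1 divided by that in replicate 2 was 3.08 for *Irf7*, 2.72 for *Irf4*, 1.34 for *Irf8*, 1.29 for *Irf9*, 1.14 for *Irf3*, 0.899 for *Irf2*, 0.850 for *Irf1* and 0.595 for *Irf5*. In Naive and Th17 the ratios of the members lay between 0.783 and 1.57. *Irf7* and *Irf4* were therefore the members in which the Th1 replicates disagreed by more than a factor of 2. Of the 22 targets, 10 exceeded a ratio of 2 in Th1, beside 13.3% of all genes tested. The highest ratios were 29.3 for *Rsad2*, 16.4 for *Mx1* and 9.07 for *Ifit1*, genes that type I interferon can induce through Irf9, while *Gbp2* had 0.731, *Igtp* 0.984 and *B2m* 0.941. *Rsad2* and *Mx1* had 0.695 and 1.45 CPM in Th1 replicate 2, so their ratios rest on low values. *Stat2*, the partner of Irf9, had 158 CPM in Th1 replicate 1 and 49.997 CPM in replicate 2. In each of Naive and Th17, 1 target exceeded a ratio of 2 (*Oas1a* with 2.02 and *Oas2* with 3.46), beside 13.3% and 6.2% of all genes tested. *Oas2* had 0.979 and 0.283 CPM in Th17, so its ratio also rests on low values. The ratio of *Irf7* in Th1 to that in Th17 was 7.09 between the first replicates and 2.85 between the second, and the same ratios for *Irf8* were 5.63 and 4.58. The genes named in this paragraph other than the members, *Gbp2* and *B2m* were chosen after their values were seen.

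**Figure D5:**
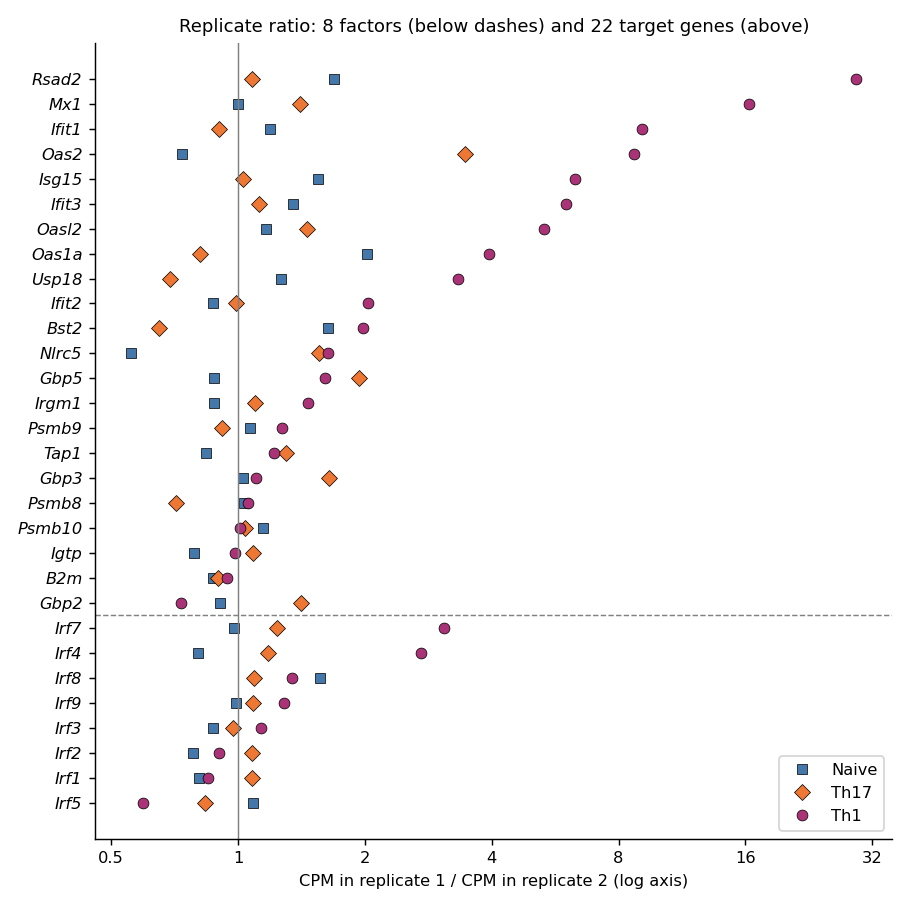
CPM in replicate 1 divided by CPM in replicate 2 of the same cell type, on a log axis, for the 22 interferon-stimulated targets (above the dashed line) and the 8 members (below it). Over members and targets, the Th1 points run from 0.595 for *Irf5* to 29.3 for *Rsad2*, the Naive points from 0.558 to 2.02 and the Th17 points from 0.651 to 3.46. For the members alone, the Th1 points run from 0.595 to 3.08, and the Naive and Th17 points from 0.783 to 1.57.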

How the data were processed

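RNA-Seq was analysed for 6 libraries, 2 each of Naive, Th17 and Th1, which the study describes as independent biological replicates. The authors aligned reads to mm10 with HISAT2 (2.2.1) and counted them per gene with HTSeq (0.13.5), and the deposited values are raw counts without normalization. Duplicate removal and default HTSeq settings are stated in the methods, whereas the accompanying code counts on the reverse strand and shows no removal of duplicates. The gene annotation used for counting is not given in the sources used here.

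The analysis used edgeR 4.0.16 in R 4.3.3, with filterByExpr, TMM scaling and the quasi-likelihood F-test in 1 fit of the 6 libraries that had no term but cell type, and Benjamini-Hochberg adjustment over 13607 genes. DEGs had a fold change above 2 and an adjusted p-value under 0.01. log2 CPM used a prior count of 2. The procedure was tested on simulated data. Exon lengths and positions were taken from GENCODE vM21 (GRCm38) as the union of all exons of a gene, and promoters from RefSeq (GRCm38.p6). Sequenced reads are not independent molecules, so depth describes counting error only.

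The genes named are the 8 members, the 3 genes nearest to each called member and, from each list, the 2 called genes with the largest change in Th1 compared with Th17 and the 2 with the highest mean CPM, plus the top gene of each marker list. Others, where a count of called genes is spelled out or further markers are given, were named after their values were seen. Some genes that meet this rule are left out of the text. The members and lists were chosen with earlier results of these data known. Alternatives were DESeq2 1.42.0, RLE factors, library size alone, no filter, a minimum of 10 counts per library, the replicate block, a fit of only the 4 libraries of a comparison, thinning all libraries to the lowest total, a threshold of 0.05 on the adjusted p-value and leaving out each library.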

Additional observations from a re-analysis of the deposited data

How the results depend on the processing

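The number of members called, in Th17 compared with Naive, Th1 compared with Naive and Th1 compared with Th17 in that order, was 0, 1 and 2. It was 3, 3 and 5 with DESeq2 and at an adjusted p-value under 0.05, 3, 2 and 4 without a filter, 2, 0 and 3 with only the 4 libraries compared, and 0, 0 and 1 with library size alone, and it ran from 0 to 2, 0 to 2 and 0 to 3 as single libraries were left out. RLE factors, a minimum of 10 counts and thinning gave the same counts as the reported fit. With the replicate block it was 2, 2 and 2, adding *Irf4* (adjusted p = 0.00683) and *Irf7* (adjusted p = 0.00214) in Th17 compared with Naive and *Irf4* (adjusted p = 0.00557) in Th1 compared with Naive. Deviations of same-numbered libraries correlated at -0.23 (Naive and Th17), 0.17 (Naive and Th1) and 0.08 (Th17 and Th1). These values cannot decide whether same-numbered libraries share a preparation or a sequencing run, which the sources used here do not state. Replicate 1 was the deeper library in every cell type.

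Of the members' log2 fold changes under alternatives, 309 kept their direction and side of the threshold, 34 gained a call, 11 lost one and 6 turned sign. Those that turned were *Irf3* in Th17 compared with Naive (-0.17 to 0.018 as libraries were left out), *Irf9* (-0.095 with library size alone, -0.0048 to 0.32 as libraries were left out, the lowest without Th1 replicate 1) and *Irf7* (-0.61 to 0.98, the lowest without Th1 replicate 1) in Th1 compared with Naive, and *Irf4* in Th1 compared with Th17 (-0.076 with library size alone, -0.78 to 0.67 as libraries were left out, the lowest without Th1 replicate 1). The cause was not tested.

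Over all genes, 739, 1014 and 752 were called, against 1717, 1917 and 1797 with DESeq2, 2154, 2259 and 2232 without a filter, 2063, 2164 and 2112 at an adjusted p-value under 0.05 and 319 to 887, 516 to 939 and 266 to 1016 with a library left out. With at least 10 counts in every library, 369 were called in Th17 compared with Naive and 442 in Th1 compared with Th17. The share of calls that were higher was 73.7%, 62.2% and 48.8%, and 77.9%, 52.4% and 36.6% with library size alone, and 61% in Th17 compared with Naive with DESeq2. With 2 libraries per cell type, the estimate of the spread between libraries limits these values.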
